A study of Mus musculus with 6 samples.

Results

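The 33 genes described here mark Müller glia and astrocytes or carry out the housekeeping of these cells. They were taken by name from a list that was chosen with earlier results of these data known. All 33 were found among the 55335 genes of the count tables and passed the filter on low counts. The RNA came from an anti-HA pull-down on Protein G beads, made from retinas of C57BL/6 mice aged 10 weeks, all labelled wild type, with retinal ganglion cells given as the cell type. HA is a short peptide tag, and the protein that carried it is not given in the sources used here. Of the 6 libraries, 3 came from naive mice and 3 from the SOHU model of glaucoma, named for silicone oil and ocular hypertension, in which oil in the anterior chamber raises the eye pressure, with retinas taken 1 week after the injection. The labels name no sham injection for the naive group or any pooling. Nothing in them ties the replicates to different mice, so the p-values reflect only how far these 6 libraries spread, and that spread may be technical.

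Müller glia are the radial glia of the retina and span its whole depth, while astrocytes lie in the nerve fibre layer around the ganglion cell axons. Both take up glutamate released by neurons and turn it into glutamine, carry potassium away through inwardly rectifying channels, and move water through aquaporins in membranes that face vessels and the vitreous. Transcription factors of the SOX and NFI families drive the formation of glia from progenitors and hold glial identity in the adult, and Müller glia share several of these factors with retinal progenitors.

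The labelled cell type was checked against marker genes. The 20 ganglion cell markers held 0.465 to 0.736% of all counts in naive and 0.221 to 0.329% in SOHU. The 33 glial genes held a larger share, 1.09, 1.35 and 1.22% in naive replicates 1 to 3 and 3.04, 2.19 and 1.79% in SOHU replicates 1 to 3. Dkk3, Prdx6, Car2, Glul and Dbi together made up 64.5 to 70.0% of it, so the sum mainly follows these 5 genes. Rod markers were present as well, at 0.617 to 0.893% over all libraries. Transcripts known from glia and photoreceptors were thus present in both groups, and a glial transcript could not be assigned to ganglion cells or to glia from these counts. In bulk samples of this kind, fewer cells of a type and less RNA per cell cannot be told apart. Total counts ranged from 21691354 to 26824919 per library. On the first principal component, SOHU replicate 3 (9.88) lay nearer to the naive libraries (-63.3 to -23.6) than the other SOHU libraries (62.5 and 49.5) did.

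**Figure D1:**
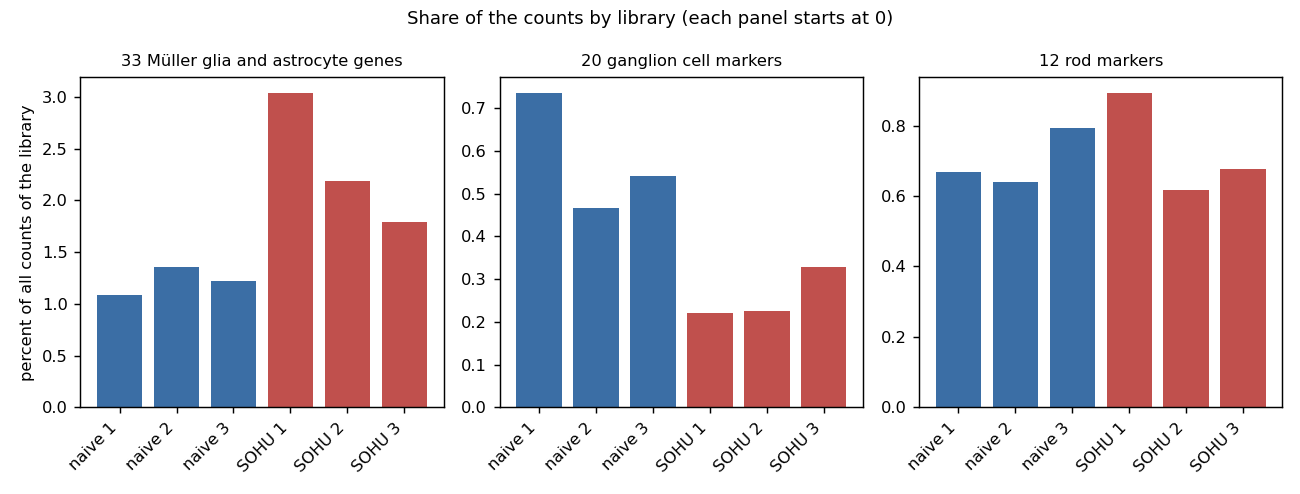
Percent of all counts of each library held by the 33 Müller glia and astrocyte genes, 20 ganglion cell markers and 12 rod markers; each bar is 1 library (blue naive, red SOHU). The glial share was at most 1.35% in naive and at least 1.79% in SOHU, the ganglion cell share ran the other way, and the rod share overlapped between the groups.

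Most glial genes were higher after the oil injection. Of the 33, 24 rose and none fell at an adjusted p under 0.05 in the quasi-likelihood test of edgeR, where 8.02% of all genes tested rose and 5.93% fell. By an unadjusted p under 0.05, 28 were higher and 0 lower, where 16.4% and 14.8% of all genes tested were. DESeq2 called 27 higher and 0 lower, beside 12% and 10.9% of all genes, and limma-voom 22 and 0, beside 7.45% and 6.42%. The median log2 fold change of the 33 was 0.98, beside 0.01 for all 17687 genes tested. The rises that passed ranged from 1.38-fold for Slc1a2 to 5.18-fold for Sox3, and 15 were above 2-fold. In 28 of the 33 genes all SOHU libraries lay above all naive libraries, as they did in 19.3% of all genes, and in 1 gene, Kcnj2, they lay below, as in 19.7% of all genes. Their summed share of the counts was 1.22 ± 0.132% in naive and 2.34 ± 0.640% in SOHU (SD, n = 3 each), a ratio of 1.91, with a two-sided exact permutation p of 0.1, the smallest that 3 libraries against 3 allow.

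The number of rises depended on single libraries. With naive replicate 1, 2 or 3 left out, edgeR called 0, 13 and 0 of the 33 genes higher, beside 0%, 3.4% and 0% of all genes. With SOHU replicate 1, 2 or 3 left out, it called 22, 8 and 27, beside 6.19%, 1.6% and 11.4%. In the 2 omissions with no edgeR call, 27 of the 33 genes had an unadjusted p under 0.05 and a higher level in SOHU, as had 11.5% and 12.1% of all genes. Limma-voom called 0 and 0 there, and DESeq2 called 23 and 22 of the 33 higher, beside 7.4% and 8.38% of all genes. The sizes moved less than the calls: the median log2 fold change of the 33 genes was 0.69 without SOHU replicate 1 and 0.87 to 1.15 in the other omissions. The calls below hold for the 6 libraries together.

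**Figure D2:**
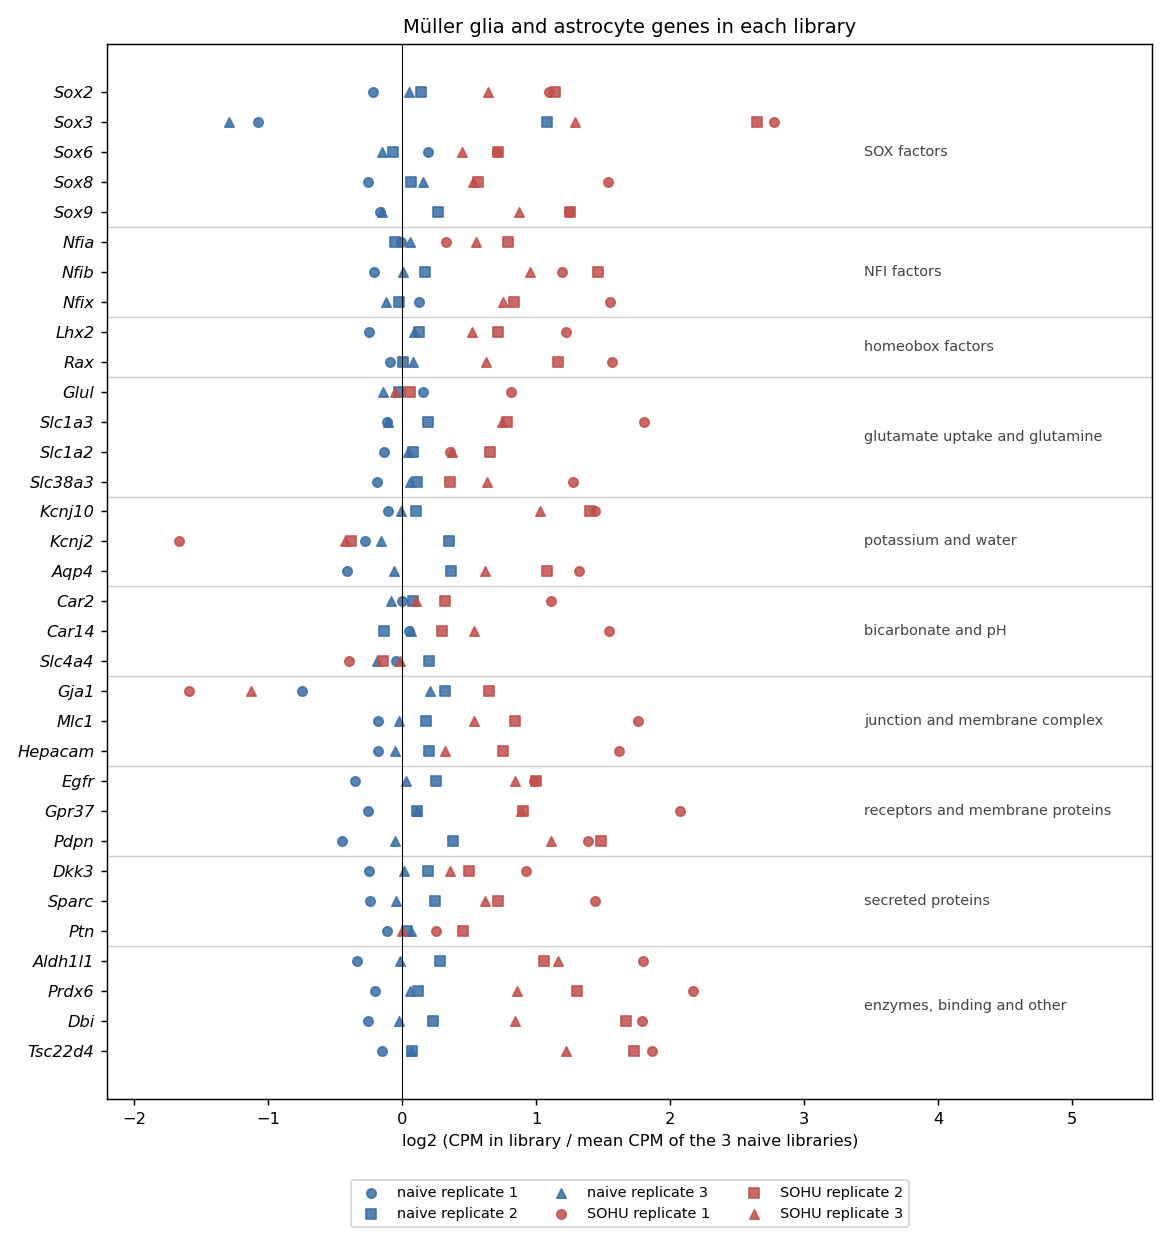
Level of each gene in each library as log2 of its counts per 1000000 counts of the library (CPM) over the mean of the 3 naive libraries, with genes grouped by function. Circles, squares and triangles are replicates 1, 2 and 3; SOHU points (red) lie to the right of all naive points (blue) in 28 genes and to the left in Kcnj2.

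The SOX factors all rose, 5 of 5, with a median log2 fold change of 0.98. Sox2 (ENSMUSG00000074637.7, mm10 chromosome 3, 34650405 to 34652461, plus strand) encodes a factor that keeps neural progenitors and is retained in adult Müller glia and astrocytes. Its level, in counts per 1000000 scaled counts of the library (CPM), was 42.9, 55.1 and 51.8 in naive replicates 1 to 3 and 106.6, 110.1 and 77.9 in SOHU replicates 1 to 3. All SOHU libraries were above all naive libraries, a rise of 1.97-fold (log2 fold change 0.98, SE 0.17, edgeR adjusted p = 0.0128). Sox9 (ENSMUSG00000000567.5, chromosome 11, 112782224 to 112787760, plus strand), a determinant of glial fate, had 54.6, 73.9 and 55.1 CPM in naive and 145.2, 146.1 and 111.9 CPM in SOHU. That rise was 2.20-fold (1.13, SE 0.17, edgeR adjusted p = 0.00994), and SOHU replicate 3 was the lowest of its group in both genes. Sox8, a close relative of Sox9, had 29.4, 36.9 and 39.1 CPM in naive and 101.8, 52.1 and 50.7 CPM in SOHU, so that its 1.94-fold rise was carried mainly by SOHU replicate 1 (log2 fold change 0.96, edgeR adjusted p = 0.0421). Without that library its log2 fold change was 0.54, and limma-voom did not call it. Sox8 shares 329 exon bases with the opposite-strand gene 2810468N07Rik, which had 68.2% of its level, and because the strand setting of the counting is not given its value is uncertain. Sox6, a SOXD factor that acts with other SOX proteins, rose 1.55-fold, from 26.3 ± 3.37 to 40.8 ± 4.22 CPM (SD, n = 3 each; adjusted p = 0.0298). Sox3, which belongs to the same subfamily as Sox2, was scarce, with 8, 32 and 6 reads in naive and 107, 91 and 39 in SOHU. Its fold change was the largest of the set (log2 2.37, SE 0.64, adjusted p = 0.038) and also the least precise. Naive replicate 2 alone accounted for most of its naive reads, and without it the log2 fold change was 3.54.

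All 3 NFI factors rose too. Nuclear factor I proteins bind DNA as dimers and are needed for glial differentiation in the retina and brain. Nfib (ENSMUSG00000008575.17, chromosome 4, 82290173 to 82705750, minus strand) had 39.4, 51.3 and 45.7 CPM in naive and 104.2, 125.4 and 88.3 CPM in SOHU, a rise of 2.33-fold (1.22, SE 0.17, edgeR adjusted p = 0.00952). Nfix had 76.7, 68.9 and 64.6 CPM in naive and 205.1, 125.3 and 117.8 CPM in SOHU, a rise of 2.13-fold. Nfia showed the smallest rise of the family, from 33.5 ± 1.30 to 49.8 ± 8.03 CPM (1.49-fold, edgeR adjusted p = 0.0379). It did not pass with library size alone. It overlaps the opposite-strand gene E130114P18Rik by 4 exon bases. The remaining family gene, Nfic, which is not in the set, had 147.2 ± 12.9 CPM in naive and 140.5 ± 10.3 CPM in SOHU (log2 fold change -0.07, adjusted p = 0.759). Among the 7 other SOX and NFI genes that passed the filter, edgeR called 0 (1 higher by an unadjusted p under 0.05, 0 by DESeq2 and 0 by limma-voom).

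The homeobox factors Rax and Lhx2, both required to form the eye field and both kept by adult Müller glia, rose 2.25- and 1.81-fold. Rax had 85.8, 91.5 and 96.4 CPM in naive and 269.6, 204.3 and 141.2 CPM in SOHU. Lhx2 had 70.0, 91.1 and 88.5 CPM in naive and 194.5, 136.9 and 119.6 CPM in SOHU. In both genes the order within SOHU was replicate 1, 2 and 3, and the groups did not overlap. Of 14 other developmental factors of glia and progenitors tested, 9 rose, with a median log2 fold change of 0.75. None fell in edgeR (1 lower by an unadjusted p under 0.05, 0 by DESeq2 and 0 by limma-voom). The rises included Id3 (2.42-fold), Hes1, a target of Notch (2.07-fold), Id2 (1.87-fold) and Zfp36l1 (1.95-fold). Pax6, which ganglion and amacrine cells also use, had a log2 fold change of -0.31 (adjusted p = 0.14).

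Because the SOX and NFI genes rose together, promoters of the set were searched for the short sequences these factors are known to bind. RefSeq (GRCm38.p6) windows of 250 bases before a start site were at hand for 23 of the 33 genes. The SOX letters used were ACAAT or ACAAAG and the NFI core TTGGC, on both strands. A SOX match was found in 6 of 16 genes that rose (Sox2, Sox6, Nfia, Nfix, Pdpn and Slc1a3) and 0 of 7 that were not called, and in 42.6% of all 27025 genes with such windows. For the NFI core the numbers were 11 of 16, 5 of 7 and 45.3%. The full NFI palindrome, made of the core and its inverted copy with a spacer between them, was found in 0 of the 23 genes and 0.0444% of all genes. Sox6 and Nfix have several windows and so more bases in which a match can fall. The shares are descriptions: a match is not a site of binding, and its absence says only that these letters are not in this window. Shown next are the 250 bases before a RefSeq start site in genes that differ in their matches. Sox2 has both motifs, Slc1a3, the glial glutamate transporter gene, a SOX match and Kcnj10, the glial potassium channel gene, an NFI match. Gja1, the gap junction gene, was not called and has neither. RefSeq starts can differ from the deposited gene starts: the Sox2 window ends at 34649994, and the deposited start is 34650405. Only the Kcnj10 window directly adjoins the deposited start. Capitals mark the matches.
Sox2 (chr3:34649745-34649994, plus strand): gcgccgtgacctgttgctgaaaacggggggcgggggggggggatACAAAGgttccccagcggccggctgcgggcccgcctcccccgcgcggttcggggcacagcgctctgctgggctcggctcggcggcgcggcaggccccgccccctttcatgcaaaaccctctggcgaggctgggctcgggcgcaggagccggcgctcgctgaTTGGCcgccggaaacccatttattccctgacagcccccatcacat
Slc1a3 (chr15:8710808-8711057, minus strand): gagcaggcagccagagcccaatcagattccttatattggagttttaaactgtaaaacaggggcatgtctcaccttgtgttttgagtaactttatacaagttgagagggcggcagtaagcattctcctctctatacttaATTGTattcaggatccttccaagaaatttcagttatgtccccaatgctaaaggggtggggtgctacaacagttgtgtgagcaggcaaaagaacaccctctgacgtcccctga
Kcnj10 (chr1:172340960-172341209, plus strand): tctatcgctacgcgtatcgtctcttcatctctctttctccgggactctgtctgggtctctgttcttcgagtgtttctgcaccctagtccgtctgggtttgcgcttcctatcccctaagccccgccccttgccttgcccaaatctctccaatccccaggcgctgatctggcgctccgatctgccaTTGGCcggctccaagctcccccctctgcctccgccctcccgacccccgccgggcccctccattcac
Gja1 (chr10:56377050-56377299, plus strand): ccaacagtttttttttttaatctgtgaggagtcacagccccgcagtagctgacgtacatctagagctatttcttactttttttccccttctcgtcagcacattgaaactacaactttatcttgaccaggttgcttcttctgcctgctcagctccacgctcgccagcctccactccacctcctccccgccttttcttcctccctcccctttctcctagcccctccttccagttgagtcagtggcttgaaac

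The Sox2 window holds the SOX letters in its first part and the NFI core nearer to the RefSeq start site. In Kcnj10 the core is likewise in the part of the window nearer to the start site, and in Slc1a3 the SOX letters are on the opposite strand.

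The genes of glutamate handling had fold changes of different sizes, which were not tested against each other. Slc1a3 (ENSMUSG00000005360.14, chromosome 15, 8634124 to 8710764, minus strand), which encodes GLAST, the main glutamate transporter of Müller glia, had 346.6, 429.3 and 349.8 CPM in naive and 1310, 646.5 and 627.7 CPM in SOHU. It rose 2.30-fold (1.20, SE 0.27, edgeR adjusted p = 0.0227). SOHU replicate 1 had about as much as the other two SOHU libraries combined, and without it the log2 fold change was 0.76. It did not pass when no filter on low counts was used, and neither did Mlc1, Gpr37 and Prdx6. Slc1a2, which encodes GLT-1, the transporter of astrocytes that cone and bipolar cells also make, had 86.2, 100.5 and 97.5 CPM in naive and 121.3, 149 and 122.6 CPM in SOHU. Its 1.38-fold rise only just passed (adjusted p = 0.0494), and it did not pass with library size alone, upper quartile scaling, no filter or limma-voom. Slc38a3, a glutamine carrier through which glia release glutamine, rose 1.75-fold, from 201.9 ± 21.7 to 353.6 ± 119.4 CPM (SD, n = 3 each; adjusted p = 0.039). Without SOHU replicate 1 its log2 fold change went from 0.81 to 0.50 and did not pass.

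Glul (ENSMUSG00000026473.16, chromosome 1, 153899944 to 153909723, plus strand) encodes glutamine synthetase, the enzyme that turns glutamate into glutamine and a classical marker of Müller glia. It was among the 5 genes with the most reads of the set but was not called. Glul had 2017, 1782 and 1643 CPM in naive and 3182, 1887 and 1746 CPM in SOHU. The groups overlapped, and only SOHU replicate 1 was above naive replicate 1. The log2 fold change was 0.32 (SE 0.23, edgeR adjusted p = 0.361), and without SOHU replicate 1 it was -0.0039. Glul made up 17.9, 13.2 and 13.6% of the reads of the set in naive replicates 1 to 3 and 9.86, 8.88 and 10.1% in SOHU replicates 1 to 3. Of 13 other genes of glutamate and glutamine metabolism tested, 4 fell, with a median log2 fold change of -0.38. None rose in edgeR (0 higher by an unadjusted p under 0.05, 0 by DESeq2 and 0 by limma-voom). Those that fell were the neuronal glutamate transporter gene Slc1a1 (1.64-fold), the glutaminase gene Gls2 (2.21-fold) and the aminotransferase genes Got1 (1.84-fold) and Got2 (1.76-fold).

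Of the 3 potassium and water genes, 2 rose. Kcnj10 (ENSMUSG00000044708.5, chromosome 1, 172341210 to 172374085, plus strand), the main inwardly rectifying potassium channel of Müller glia, had 57.5, 66.3 and 61.4 CPM in naive and 167.2, 163.2 and 125.8 CPM in SOHU. The naive libraries lay close together, and the rise was 2.46-fold (1.30, SE 0.15, edgeR adjusted p = 0.00858). Aqp4, the water channel gene of glial endfeet, had 271.2, 463.3 and 344.7 CPM in naive and 897.8, 762.3 and 552.7 CPM in SOHU, a rise of 2.05-fold (1.04, SE 0.23, adjusted p = 0.0213). Kcnj2, a further inward rectifier that many cell types express, ran the other way, with 5.005, 7.73 and 5.44 CPM in naive and 1.91, 4.66 and 4.51 CPM in SOHU. Although these values did not overlap, the difference was not called (log2 fold change -0.71, SE 0.35, edgeR adjusted p = 0.197). In a list of 18 other potassium and water genes tested, 6 rose and 1 fell. Among the rises were Sntb1 (2.41-fold) and Dag1 (1.70-fold), which encode parts of the dystrophin complex that anchors both proteins at endfeet, and the water channel gene Aqp5 (3.08-fold). Agrn, which encodes agrin, rose 1.52-fold. Kcnj9, a channel gene of neurons, fell 1.71-fold.

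None of the 3 genes of bicarbonate and pH passed in edgeR (2 higher by an unadjusted p under 0.05, 1 by DESeq2 and 0 by limma-voom). Car2, the cytosolic carbonic anhydrase, had 1694, 1796 and 1603 CPM in naive and 3671, 2125 and 1823 CPM in SOHU. Its values did not overlap, but SOHU replicate 3 exceeded naive replicate 2 by little (log2 fold change 0.58, SE 0.24, edgeR adjusted p = 0.133). Car14, a carbonic anhydrase of the Müller glia surface, had 204, 178.8 and 206 CPM in naive and 573.4, 240.9 and 285.5 CPM in SOHU (0.90, SE 0.28, adjusted p = 0.061). Without SOHU replicate 1 the log2 fold changes of Car2 and Car14 were 0.21 and 0.42. Slc4a4, the sodium bicarbonate cotransporter, was scarce and overlapped between the groups, at 9.14 ± 1.26 and 8.10 ± 1.08 CPM (SD, n = 3 each; -0.17, SE 0.20, adjusted p = 0.598). Of 17 other pH genes tested, 2 rose and 3 fell: the cotransporter Slc4a7 (1.55-fold) and the lactate carrier Slc16a1 (1.60-fold) rose, and Car10 (1.78-fold), the exchanger Slc4a3 (1.47-fold) and the lactate carrier Slc16a3 (1.82-fold) fell.

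Among the junction and membrane complex genes, Mlc1 rose and Gja1 did not. Mlc1 (ENSMUSG00000035805.13, chromosome 15, 88955884 to 88979007, minus strand), which encodes a membrane protein of astrocyte contacts, had 304.8, 390.4 and 338.9 CPM in naive and 1166, 617.8 and 500.5 CPM in SOHU, a rise of 2.21-fold (1.14, SE 0.28, edgeR adjusted p = 0.0285). Without SOHU replicate 1 its log2 fold change was 0.69. Hepacam, the adhesion protein that brings MLC1 to cell contacts, had 83, 97 and 79 reads in naive and 268, 136 and 111 in SOHU, with no overlap in CPM. It did not pass (log2 fold change 1.00, SE 0.33, edgeR adjusted p = 0.0732), but DESeq2 called it. Gja1, which encodes connexin 43, the main gap junction protein of astrocytes, had 17.9, 37.6 and 34.7 CPM in naive and 10.0, 47.2 and 13.7 CPM in SOHU. SOHU replicate 2 was the highest of all 6 libraries and SOHU replicates 1 and 3 were the lowest, so that the groups overlapped and the fold change had a wide error (-0.35, SE 0.63, edgeR adjusted p = 0.751). Its log2 fold change was 0.015 without SOHU replicate 1 and -1.33 without SOHU replicate 2. In 12 related genes tested, the cadherin gene Cdh2 rose 1.86-fold. The neuronal connexin gene Gjd2 (1.55-fold) and the sodium pump subunit gene Atp1b1 (1.94-fold) fell. The astrocyte connexin genes Gjb2 and Gjb6 were at 0.14 and 0.07 CPM in naive and did not pass the filter.

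All 3 receptors and surface proteins rose. Gpr37, a receptor gene expressed in glia, had 238.8, 308.2 and 308.6 CPM in naive and 1201, 533.1 and 526.5 CPM in SOHU, a rise of 2.64-fold (1.40, SE 0.30, edgeR adjusted p = 0.0199). SOHU replicate 1 was again the highest, and without it the log2 fold change was 0.89. Its relative Gpr37l1 rose 3.03-fold, from 8.24 ± 2.20 to 24.9 ± 11.04 CPM (SD, n = 3 each). Pdpn, which encodes podoplanin, a mucin-like glycoprotein, rose 2.53-fold, with 43.4, 77.2 and 57.1 CPM in naive and 155.3, 165.6 and 127.9 CPM in SOHU. Egfr, the receptor for epidermal growth factor, a mitogen of Müller glia, had 7.82, 11.9 and 10.2 CPM in naive and 19.7, 19.9 and 17.8 CPM in SOHU. It rose 1.92-fold (0.94, SE 0.20, edgeR adjusted p = 0.0179). Of 10 EGFR ligands and partners tested, its partner Erbb2 rose 2.51-fold and the ligand gene Btc 2.13-fold, while Hbegf had a log2 fold change of -0.04 (adjusted p = 0.868).

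Of the secreted proteins, Sparc rose and Dkk3 and Ptn did not pass. Sparc, which encodes a matrix protein that antagonises the synapse-forming protein hevin, had 779.7, 1092 and 894.5 CPM in naive and 2499, 1514 and 1414 CPM in SOHU, a rise of 1.96-fold (0.97, SE 0.23, edgeR adjusted p = 0.0263). Sparcl1, the gene of hevin, had 419.4 ± 83.1 CPM in naive and 189.7 ± 51.6 CPM in SOHU (SD, n = 3 each), and fell 2.21-fold (-1.14, SE 0.21, edgeR adjusted p = 0.0143). Both are made by glia, and Sparcl1 is also made by neurons. Dkk3, which encodes a secreted protein related to Wnt inhibitors and abundant in Müller glia, had 2071, 2809 and 2478 CPM in naive and 4654, 3469 and 3140 CPM in SOHU. The values did not overlap (log2 fold change 0.61, SE 0.19, edgeR adjusted p = 0.0589), and DESeq2 called the difference. Ptn, the gene of the growth factor pleiotrophin, overlapped between the groups, at 190.2 ± 12.4 and 225.5 ± 35.1 CPM (0.25, SE 0.14, adjusted p = 0.278). Its relative Mdk, the gene of midkine, rose 1.86-fold. The testican genes Spock1, Spock2 and Spock3, relatives of Sparc that neurons express, fell 1.66- to 1.84-fold.

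The 4 remaining genes, enzymes and binding proteins among them, all rose, with the highest median log2 fold change of the functional groups (1.52). Tsc22d4, a leucine zipper gene, had 154.8, 180 and 179.2 CPM in naive and 622.7, 568.4 and 399.5 CPM in SOHU, and its adjusted p was the smallest of the set (3.10-fold; 1.63, SE 0.18, edgeR adjusted p = 0.00762). Prdx6, a peroxiredoxin that reduces oxidised phospholipids, had 1266, 1582 and 1512 CPM in naive and 6533, 3595 and 2637 CPM in SOHU, a rise of 2.93-fold. Dbi, which encodes an acyl-CoA-binding protein whose peptides act on GABA receptors, had 824.5, 1154 and 967.4 CPM in naive and 3401, 3131 and 1765 CPM in SOHU, a rise of 2.82-fold. Aldh1l1, a folate enzyme widely used to mark astrocytes, rose 2.60-fold, from 34.5 ± 7.35 to 89.8 ± 26.4 CPM (SD, n = 3 each). How reads of close gene copies were counted is not given in the sources used here, so levels of genes with near-identical copies elsewhere are uncertain. The Prdx6 copy Prdx6b had at most 8 reads in any library. Of the 16 relatives tested, 5 rose, among them Tspo, a receptor for the Dbi product (2.82-fold), Prdx1 (2.04-fold) and Aldh1a1 (2.10-fold). The related gene Tsc22d1 fell 1.42-fold.

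**Figure D3:**
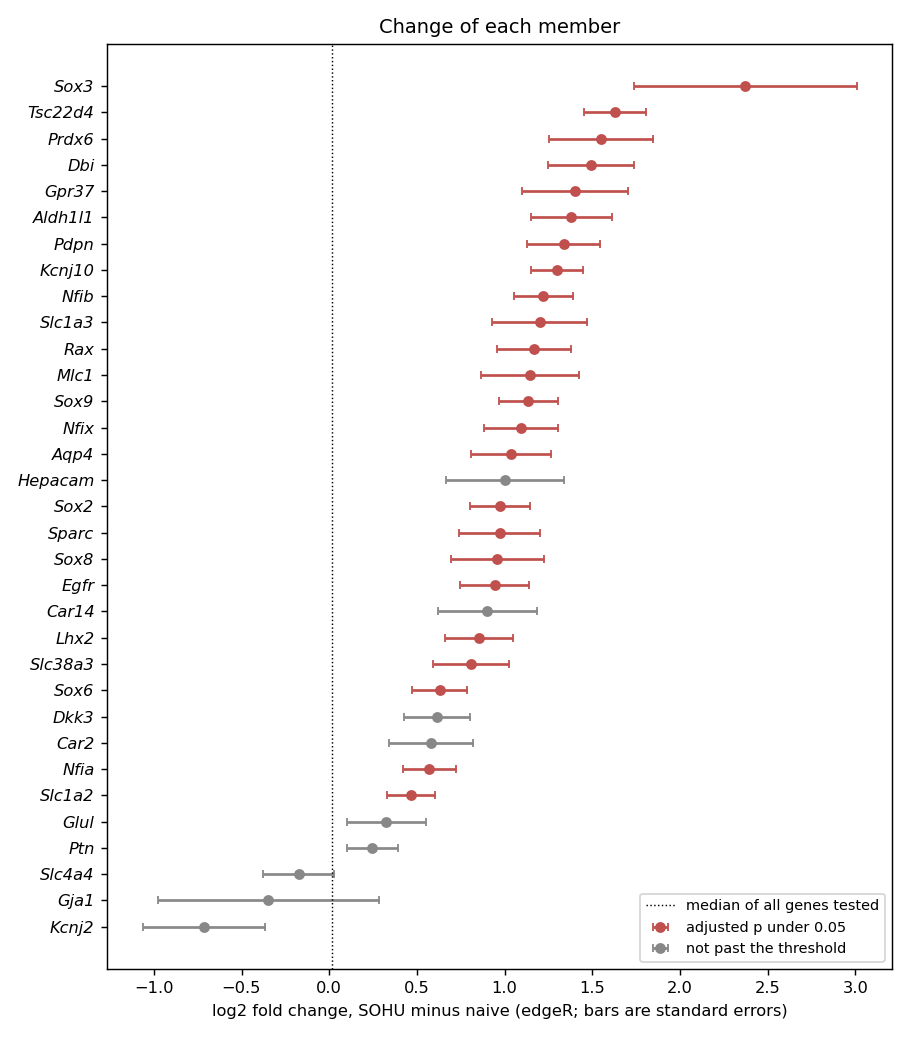
Log2 fold change (SOHU minus naive) of the 33 genes with its standard error, ordered by size; red genes passed an edgeR adjusted p under 0.05 and the dotted line is the median of all genes tested. Values run from -0.71 for Kcnj2 to 2.37 for Sox3, and the 5 lowest, Kcnj2, Gja1, Slc4a4, Ptn and Glul, were not called.

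Levels within the set spanned a wide range. Per kilobase of exon, and as a mean over the naive libraries, Dkk3 (730.3 ± 110.1 CPM per kilobase, SD, n = 3), Car2 (700.9 ± 39.9) and Dbi (690.5 ± 116.1) were the highest and did not differ beyond the spread of their libraries. Glul (479.7 ± 49.98) lay apart below them. Among the SOX and NFI factors, Sox2 (24.3 ± 3.06) was the highest, and Sox9 (14.8 ± 2.65), Sox8 (11.3 ± 1.63) and Nfix (9.53 ± 0.834) followed. Sox3 was the lowest of the set, at 0.314 ± 0.304 CPM per kilobase. By the mean of the SOHU libraries Dbi (1944.6 ± 616.7) ranked 1, ahead of Dkk3 (1117.7 ± 237). Prdx6 (885.7 ± 422.6) moved from rank 5 to rank 4, ahead of Glul (600.6 ± 209.3), while Ptn went from rank 10 to 15. The SOHU libraries of Dbi and Dkk3 overlapped, as did those of Prdx6 and Glul, so these orders do not hold beyond the spread.

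Each member was also set against the other 32 genes of the set. For each gene and library the level was divided by the geometric mean of the other 32, so that some genes must lie above and others below the common change. Divided by the geometric mean of the set in the same way, 67.4% of all genes tested were lower and 2.31% higher in SOHU with no overlap between the groups. These shares include the rise of the set itself and are no baseline for differences within it. In CPM without this division, 19.3% of all genes were higher and 19.7% lower with no overlap. In the set, 8 genes had higher ratios in all SOHU libraries (Sox9, Nfib, Kcnj10, Pdpn, Aldh1l1, Prdx6, Dbi and Tsc22d4) and 6 had lower ones (Glul, Slc1a2, Kcnj2, Slc4a4, Dkk3 and Ptn). Tsc22d4 went from ratios of 1.91, 1.71 and 1.98 in naive to 3.10, 3.39 and 2.96 in SOHU. Glul went from 27.0, 18.2 and 19.5 to 16.7, 11.7 and 13.5, and Ptn from 2.18, 1.86 and 2.21 to 1.09, 1.51 and 1.37. These ratios were chosen for display after the values were seen and carry no test. The counts of 8 and 6 genes are descriptions and are not read as a trait of the set.

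**Figure D4:**
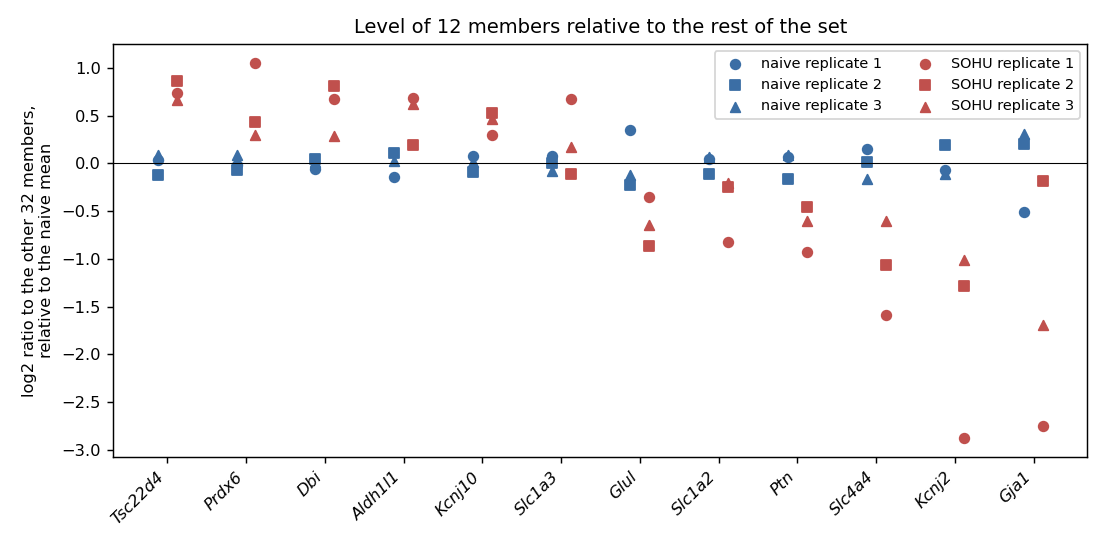
Log2 ratio of 12 genes to the geometric mean of the other 32 genes of the set in each library, relative to the naive mean (circles, squares and triangles are replicates 1, 2 and 3). Tsc22d4, Prdx6, Dbi, Aldh1l1 and Kcnj10 lay higher and Glul, Slc1a2, Ptn, Slc4a4 and Kcnj2 lower in all 3 SOHU libraries (red), while Slc1a3 and Gja1 overlapped.

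The genes also differed in how they spread over the SOHU libraries. SOHU replicate 1 was the highest of the 6 libraries in 21 genes and SOHU replicate 2 in 10, while naive replicate 1 was the lowest in 23. In 13 of the 33 genes the level in SOHU replicate 1 was more than 1.5 times that in SOHU replicate 2, namely Sox8, Nfix, Glul, Slc1a3, Slc38a3, Car2, Car14, Mlc1, Hepacam, Gpr37, Sparc, Aldh1l1 and Prdx6. Of these, 2 are among the 10 transcription factors and 11 among the 23 other genes. The median of that ratio was 1.04 in the factors, 1.34 in the others and 1.02 in all 15366 genes with a mean of at least 1 CPM, of which 2032 had a ratio above 1.5. Sox2, Sox6, Sox9, Egfr and Pdpn had ratios of 0.968, 0.997, 0.994, 0.987 and 0.938, so that these libraries were close there.

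Several glial genes outside the set, in a list also chosen with earlier results of these data known, were higher as well. Of 16 other markers of Müller glia and astrocytes tested, 9 rose, with a median log2 fold change of 0.97, and 0 fell in edgeR (1 lower by an unadjusted p under 0.05, 1 by DESeq2 and 0 by limma-voom). Abca8a (1.55-fold), the lipoprotein gene Apoe (2.70-fold), Vim (1.87-fold) and the astrocyte filament gene Gfap (4.63-fold) were among the rises. Rlbp1, which encodes the retinaldehyde-binding protein of Müller glia, had 1480 ± 123.6 CPM in naive and 3327 ± 2042 CPM in SOHU (SD, n = 3 each) and did not pass (log2 fold change 1.17, edgeR adjusted p = 0.061). Aldoc, a glycolytic gene that astrocytes use, had a log2 fold change of -0.08 (adjusted p = 0.772). Pax2, a marker of retinal and optic nerve astrocytes, was at 0.23 and 0.28 CPM and did not pass the filter.

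Markers of some other cells also differed between the groups, in both directions, and their part in these results was not tested. Of 20 ganglion cell markers, 19 fell, with a median log2 fold change of -1.06. Within the naive group, replicate 1 had both the highest share of these markers (0.736%) and the lowest share of the 33 glial genes. In SOHU, replicate 3 had the highest marker share (0.329%) and the lowest glial share. Microglia and macrophage markers held 0.000884 to 0.00424% of all counts in naive and 0.00592 to 0.0147% in SOHU, with 6 of 15 tested higher. Lyz2, a gene of macrophages, was among these, with means of 4.99 CPM in naive and 33.05 CPM in SOHU. The others were Trem2 (11.15-fold), Tyrobp (8.35-fold), C1qa (3.89-fold), Cd68 (3.87-fold) and C1qb (3.36-fold). Whether microglia or macrophages gave these reads was not tested. The microglial receptor genes P2ry12 (means of 0.73 and 1.05 CPM, naive first here and in the pairs that follow) and Cx3cr1 (0.67 and 2.26 CPM) did not pass. The endothelial and pericyte list held 0.0352 to 0.0413% and 0.0778 to 0.101%, and 3 of 9 genes tested were higher: Kdr (282.6 and 707.4 CPM), Flt1 (66.8 and 142.7 CPM) and Pdgfrb (9.07 and 21.98 CPM). Kdr and Flt1 made up most of that share. The endothelial genes Pecam1 (0.43 and 0.26 CPM) and Cdh5 (0.01 and 0.04 CPM) did not pass the filter, and Tek and Emcn had log2 fold changes of -0.21 and -0.08 and did not pass the test. The 9 oligodendrocyte markers held 0.0106 to 0.0136% and 0.0163 to 0.0367%, most of it from Cnp, the 1 of 4 tested that was higher (94.9 and 231 CPM). The myelin gene Mbp had 19.3 and 13.1 CPM and did not pass, and Mobp was at 0 in every library. Amacrine and horizontal cell markers held 0.233 to 0.257% and 0.136 to 0.188%, with 3 of 14 lower, and 1 of 12 bipolar cell markers, Isl1, which ganglion cells share, was lower. Rod and cone markers were called in 0 of 12 and 0 of 10 genes by edgeR (1 and 1 higher by an unadjusted p under 0.05, 1 and 1 by DESeq2, 0 and 0 by limma-voom). Of the lens markers 3 of 8 tested were higher, with Lim2 at 0 in every library and a summed share of 0.00139 to 0.00251% in naive and 0.00201 to 0.00407% in SOHU. Pigment epithelium markers held 0.00229 to 0.00264% and 0.00208 to 0.00422%, and edgeR called 0 of 5 tested (1 higher and 1 lower by an unadjusted p under 0.05, 1 by DESeq2 and 0 by limma-voom).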

How the data were processed

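The deposited values are raw read counts for each gene, in 1 file a library and in 1 table of all 6 whose columns were equal to those files. The submitters' processing notes name featureCounts, HISAT and HISAT2, Trim Galore, bcl2fastq 2.17 and MultiQC, with build mm10. Settings, annotation, strand and the treatment of multiply aligned reads were not given in the sources used here. Exon lengths and coordinates are those deposited. Symbols came from GENCODE M21 by Ensembl identifier for 55154 of 55335 genes. Libraries were grouped by their labels. Replicates were no copies of each other (chi-square per degree of freedom 12.6 to 79.0 within groups).

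Genes were filtered with filterByExpr (17687 kept), scaled by TMM and compared in edgeR 4.0.16 (R 4.3.3) by its robust quasi-likelihood F test, group as the only term, with Benjamini-Hochberg adjustment over all genes tested and a threshold of 0.05. Log2 fold changes are SOHU minus naive. CPM use TMM-scaled library sizes. Alternatives used DESeq2 1.42.0, limma 3.58.1, other scalings, no filter, a replicate block and single libraries left out. The 33 genes and all lists were chosen with earlier results of these data known. The text names all 33, up to 4 called genes of each list with the smallest adjusted p, and further list genes chosen after their values were seen.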

Additional observations from a re-analysis of the deposited data

How the results depend on the processing

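Of the 33 genes, the number higher in SOHU was 24 with DESeq2 size factors, 22 with library size alone, 23 with upper quartile scaling, 21 without the filter, 27 with DESeq2, 22 with limma-voom and 20 with a replicate block, and none was lower in any of these. In the same order, 1431, 1365, 1369, 1682, 1894, 1317 and 1178 of all genes were higher. The numbers lower were 1070, 755, 1164, 1675, 1729, 1136 and 892. With the filter, edgeR and limma-voom tested 17687 genes, and DESeq2 gave adjusted p-values for 15839. The labels state no pairing by replicate number. Correlations of deviations from the group means were 0.163, 0.251 and 0.004 for libraries of equal number, and -0.28 to 0.095 for unequal numbers. Deviations within a group depend on each other, so these values do not decide whether replicates were paired. Nfia, Slc1a2, Slc38a3 and Sox8 did not pass under the replicate block. With 1 library left out, edgeR called 0 to 27 of the 33 genes and 0 to 3896 of all genes (887 without naive replicate 2, 336 without SOHU replicate 2), beside 2467 with all libraries. After seeing the data, omissions were repeated with other tools. DESeq2 then called 22 to 28 of the 33 genes higher, with 1 lower (Gja1) without SOHU replicate 2, and 1765 to 4486 of all genes. For limma-voom the numbers were 0 to 27 (13 without naive replicate 2) and 0 to 3859 (941 without naive replicate 2). All 33 directions held under each of these alternatives, except that without SOHU replicate 1 edgeR gave Glul -0.0039 and Gja1 0.015 and DESeq2 also kept 31 directions. With 1 library left out in edgeR, the log2 fold change of Glul ranged up to 0.4986 (without SOHU replicate 3) and that of Gja1 down to -1.326 (without SOHU replicate 2). The cause was not tested. Depth limits Sox3, Hepacam and Kcnj2 most, which rest on 6 to 268 reads a library.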
